A study of Mus musculus with 6 samples.

Results

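Alcohol and aldehyde dehydrogenases were followed here through 10 genes of the liver: 3 alcohol dehydrogenase genes (Adh1, Adh4 and Adh5) and 7 aldehyde dehydrogenase genes (Aldh1a1, Aldh1a7, Aldh1b1, Aldh1l1, Aldh2, Aldh3a2 and Aldh9a1). They were picked out by gene symbol, with earlier results of these data known, and make up 10 of the 20107 genes in the count table. The livers came from 6 male wild-type C57BL/6N mice (Envigo), all 16 weeks old and littermates by the labels. From 8 weeks of age, for 8 weeks, 3 mice had Chow (replicates 7, 8 and 9) and the other 3 had HFHC (replicates 1, 2 and 3), a high-calorie, high-fat food with fructose plus a drink rich in fructose. RNA was sequenced from whole liver after removal of ribosomal RNA, with 1 library per mouse. The design asks how this diet changes liver gene expression.

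Alcohol dehydrogenases oxidise alcohols to aldehydes, and aldehyde dehydrogenases oxidise aldehydes on to acids, in both cases passing the electrons to NAD+ or NADP+. The liver is the main site of ethanol oxidation, which runs from ethanol to acetaldehyde in the cytosol and from acetaldehyde to acetate mostly in the mitochondria. The same families also handle aldehydes made in the body: retinaldehyde, formaldehyde bound to glutathione, a folate-bound formyl group, a precursor of carnitine, and the long-chain aldehydes that come from fatty alcohols, sphingolipids and ether lipids.

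Of the 10 genes, 1 was called as different between the diets. Aldh3a2, the fatty aldehyde dehydrogenase, rose 1.72-fold in HFHC livers, and the 9 others were not called. A gene is called here when its adjusted p is under 0.05 in edgeR's quasi-likelihood test, with p-values adjusted by Benjamini and Hochberg's method over all 14896 genes tested. By that rule 6.67% of all tested genes were called in either direction, 3.38% as higher and 3.3% as lower in HFHC, so 1 of 10 is close to the background. Levels below are counts scaled to the same library size in every liver (CPM), given as mean ± SD over 3 mice. The 10 genes together took up 6796 ± 159 CPM in HFHC and 6525 ± 526 CPM in Chow (SD, n = 3 each). The ranges of that sum overlapped, from 6661 to 6972 CPM in HFHC and from 6167 to 7129 CPM in Chow. Of the unscaled counts, pooled over the livers of each diet, the 10 genes made up 0.687% in HFHC and 0.645% in Chow. The log2 fold changes of the 10 genes (HFHC over Chow) ran from -0.29 to 0.78 with a median of 0.03, with 5 above 0 and 5 below, against a median of -0.0033 over all tested genes.

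**Figure D1:**
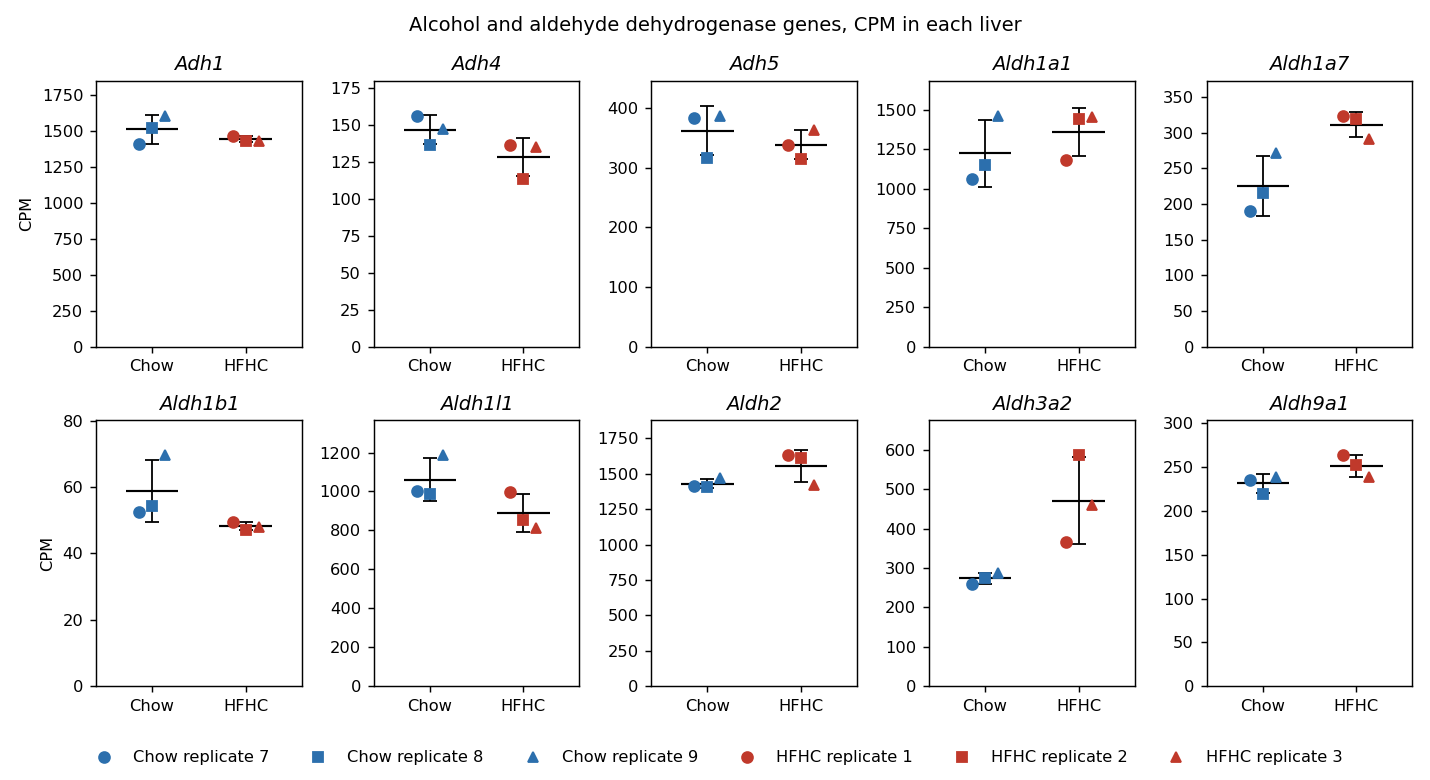
CPM of each of the 10 genes (vertical axes, from 0) in the 3 Chow livers (blue) and the 3 HFHC livers (red), with 1 point per liver, a bar at the mean and whiskers of 1 SD. Aldh3a2 lies between 366 and 588 CPM in HFHC and between 259 and 288 CPM in Chow, while the points of Adh1, Adh5, Aldh1a1, Aldh1l1, Aldh2 and Aldh9a1 overlap between the diets.

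Library depth was 30096378 to 30871262 counts in HFHC and 26767415 to 27339613 counts in Chow, so that 1 read stood for 0.0318 to 0.0379 CPM. The lowest count of any of the 10 genes in any library was 1384 (Aldh1b1 in Chow replicate 7), and the spread between livers, not the depth, limits these comparisons. Hepatocyte markers were high in all 6 livers, with a summed level of 95351 to 98746 CPM in HFHC and 88405 to 108580 CPM in Chow. Of the marker lists for other cells and zones, the sums for stellate cells, sinusoidal endothelium, cholangiocytes, T, B and NK cells, neutrophils, erythroid cells, pancreas and pericentral hepatocytes overlapped between the diets. The sum of 11 Kupffer cell and macrophage markers was 342 to 416 CPM in HFHC and 290 to 339 CPM in Chow, with no overlap (exact permutation test, two-sided, p = 0.1, the smallest that 20 assignments allow), though none of the 11 was called. The sum of 10 periportal hepatocyte markers was 6793 to 7006 CPM in HFHC and 10573 to 12265 CPM in Chow, with 6 of the 10 called lower. Among them Hal, Gls2 and Cdh1 fell by 1.07, 0.86 and 0.73 on the log2 scale (adjusted p 0.00046, 0.0038 and 0.0066 by edgeR). The log2 fold change was below 0 for 9 of the 10, and Hsd17b13 was at 0.28. The 10 pericentral markers summed to 8773 to 9810 CPM in HFHC and 8962 to 9913 CPM in Chow. Cyp2e1 made up most of that sum, with means of 6303 CPM in HFHC and 5954 CPM in Chow. Of the 10 pericentral markers 6 were below 0 (median -0.18) and 2 were called lower, Cyp2c37 by 0.75 and Cyp1a2 by 0.45 on the log2 scale. Of the adipocyte markers the table holds Cfd alone, at 0.382 to 1.70 CPM in HFHC and 0 to 0.0377 CPM in Chow, and it was called higher. The part that these cell types and zones play in the values of the 10 genes was not tested. In whole liver, fewer cells of a type and less RNA per cell cannot be told apart.

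Aldh3a2 is the member with a called difference. Its enzyme sits in the membrane of the endoplasmic reticulum and of peroxisomes and oxidises medium- and long-chain aliphatic aldehydes to fatty acids. Loss of the human gene causes Sjögren-Larsson syndrome, in which fatty alcohols and fatty aldehydes build up. By GENCODE M21 (mm10) the gene lies on the minus strand at chr11:61223417-61267464. No other annotated gene shares a stretch of 75 bases with its transcripts or overlaps its exons. The 100 bases before its annotated start (RefSeq, GRCm38.p6, chr11:61267187-61267286, minus strand) are shown because it is the called gene; 48 of them lie in an exon of noncoding transcripts of the same gene. Capitals mark an E-box, CACGTG, whose first base is 30 bases before the start, and a CCAAT box 13 bases before it.
Aldh3a2: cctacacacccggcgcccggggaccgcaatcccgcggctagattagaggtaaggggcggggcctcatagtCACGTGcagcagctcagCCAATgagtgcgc
Promoters were searched on both strands for these motifs, over the 250 bases before each start. CACGTG occurs in 6.02% and CCAAT in 33.8% of the 32817 promoters of that length, so neither is rare, and nothing about binding follows from a match.

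In the 3 HFHC livers Aldh3a2 stood at 366 CPM (replicate 1), 588 CPM (replicate 2) and 460 CPM (replicate 3). In the 3 Chow livers it stood at 259 CPM (replicate 7), 275 CPM (replicate 8) and 288 CPM (replicate 9). Every HFHC liver was above every Chow liver, and the HFHC livers were spread far more widely, with a coefficient of variation of 23.6% against 5.28% in Chow. The means were 471 ± 111 and 274 ± 14.5 CPM (SD, n = 3 each). The log2 fold change was 0.78 ± 0.15 (SE, 95% interval 0.45 to 1.12), a 1.72-fold rise with an interval of 1.36 to 2.17, and the adjusted p was 0.0174 by edgeR's quasi-likelihood test. It ranked 410th of all tested genes by p. The call held in 16 of 18 alternatives, with an adjusted p of 1.76e-06 to 0.439 over all of them. Some of these could hardly change it, such as cutting counts to whole numbers or summing Aldh1a1 and Aldh1a7. A threshold of 0.01, which Aldh3a2 did not pass in the reported fit, is not among the 18. The call was lost without Chow replicate 7, with a log2 fold change of 0.74 and an adjusted p of 0.0759 by edgeR. It was also lost with a clock index as a covariate, with 0.64 and 0.439.

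That clock index compares genes whose liver RNA peaks at opposite times of day: from the mean log2 CPM of Dbp, Per2 and Per3 it takes that of Clock, Npas2 and Arntl, and it is centered on the 6 livers. It was 0.46, 1.18 and 1.45 in HFHC replicates 1, 2 and 3, and -2.07, 0.50 and -1.53 in Chow replicates 7, 8 and 9. All HFHC livers were above Chow replicates 7 and 9, and Chow replicate 8 lay among the HFHC livers. With it in the model 65 genes of the whole table were called in place of 994. Of the genes in the index, Dbp was itself called higher in HFHC (log2 fold change 1.26) and Clock lower (-0.60), while Per2, Per3, Npas2 and Arntl were not called. The index thus largely follows the diet in these livers, and the parts of diet and time of day cannot be told apart. Fewer calls with the index in the model do not show that the calls stem from time of day, which was not tested.

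The 3 genes whose log2 CPM followed Aldh3a2 most closely over the 6 livers, among 9125 genes with a mean of at least 5 CPM, were Orc2 (Pearson r 0.997), Tmem115 (0.995) and Mfsd5 (0.991). The 6 livers share the diet contrast and the library scaling, 65 genes had r over 0.95, and these values are a description. None of the 3 was called: Orc2 had a log2 fold change of 0.09, Tmem115 of 0.16 and Mfsd5 of 0.11, far smaller differences than that of Aldh3a2.

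Aldh1a7 and Aldh1a1 are neighbours. Aldh1a1 encodes the cytosolic retinaldehyde dehydrogenase of the liver, one of the enzymes that make retinoic acid, and also oxidises aldehydes from lipid peroxidation. Aldh1a7 is its close relative in rodents. Aldh1a1 lies on the plus strand at chr19:20492715-20643465 and Aldh1a7 on the minus strand at chr19:20692953-20727562, with 49.5 kb between them. Their transcripts are alike but can mostly be told apart by reads of 75 bases: 1.01% of the 75-base stretches of Aldh1a1 and 2.51% of those of Aldh1a7 occur in the other. The 250 bases before the second annotated start of Aldh1a1 (chr19:20601718-20601967, plus strand, within an intron of its longer transcripts up to the last 7 bases, which are exonic) and before the start of Aldh1a7 (chr19:20727557-20727806, minus strand, with its last 6 bases exonic) are shown because these neighbours did not have the same values. Capitals mark the longest run the windows share, 65 bases, which ends 29 bases before the start in both.
Aldh1a1: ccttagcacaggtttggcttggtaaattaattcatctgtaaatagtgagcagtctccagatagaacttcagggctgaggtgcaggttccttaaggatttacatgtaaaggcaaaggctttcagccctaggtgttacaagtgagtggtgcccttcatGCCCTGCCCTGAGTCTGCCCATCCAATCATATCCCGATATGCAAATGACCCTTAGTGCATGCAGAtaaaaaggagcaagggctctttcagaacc
Aldh1a7: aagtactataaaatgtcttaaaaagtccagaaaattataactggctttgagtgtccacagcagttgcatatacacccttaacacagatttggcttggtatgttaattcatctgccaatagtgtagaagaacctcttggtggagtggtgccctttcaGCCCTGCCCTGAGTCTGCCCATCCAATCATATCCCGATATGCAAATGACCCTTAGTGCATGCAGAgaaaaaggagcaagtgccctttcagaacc
Of the nearest 100 bases 94.0% are identical, and over the whole windows 65.67% of the aligned columns. For the window before the first annotated start of Aldh1a1, aligned to that of Aldh1a7 in the same way, it was 50.91% of 275 columns. Both windows shown hold an octamer, ATGCAAAT, and a CCAAT box inside the shared run. The octamer is found in 526 of the 32817 promoters. Of the 10 genes, 9 had a window in the RefSeq table, in 11 windows. CACGTG was found before Aldh3a2 alone among them, and TGACNNNGC, the core of the antioxidant response element, before Aldh9a1 alone (10.2% of all promoters). Neither AGGTCA repeated with 1 base between the copies, a direct repeat bound by nuclear receptors (0.0335% of promoters), nor GTTAAT followed after 1 base by ATTAAC, the HNF1 site (0.00914%), was found in these letters in any of the windows.

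Aldh1a7 was at 324, 319 and 292 CPM in HFHC replicates 1, 2 and 3, and at 190, 215 and 272 CPM in Chow replicates 7, 8 and 9. All HFHC livers were above all Chow livers, although Chow replicate 9 came close to HFHC replicate 3. The means were 312 ± 17.5 and 226 ± 41.8 CPM (SD, n = 3 each), with a log2 fold change of 0.47 ± 0.13 (SE, 95% interval 0.18 to 0.75) and an adjusted p of 0.0581 by edgeR's quasi-likelihood test, so Aldh1a7 was not called. It sat near the threshold: 5 of 17 alternatives called it, with an adjusted p of 0.0043 to 0.465 over all 17. Those 5 were upper-quartile scaling (0.0429), scaling without the 10 most abundant genes (0.0447), DESeq2 (0.0043), limma-voom with sample weights (0.0435) and leaving out Chow replicate 9, where edgeR gave a log2 fold change of 0.62 and an adjusted p of 0.0180.

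Aldh1a1 was at 1181, 1444 and 1454 CPM in HFHC replicates 1, 2 and 3, and at 1061, 1149 and 1463 CPM in Chow replicates 7, 8 and 9. The diets overlapped, and Chow replicate 9 was the highest of the 6. The log2 fold change was 0.15 ± 0.13 (SE, 95% interval -0.15 to 0.45), with an adjusted p of 0.567 by edgeR, and moved to 0.06 without Chow replicate 7 and to 0.30 without Chow replicate 9. With the counts of both genes summed into 1 row, the log2 fold change was 0.21 ± 0.13 and the adjusted p 0.401 by edgeR, and no alternative called the sum. The ratio of Aldh1a7 to Aldh1a1 CPM, a comparison chosen after the values were seen and not one of levels per length, was 0.274, 0.221 and 0.200 in HFHC and 0.179, 0.187 and 0.186 in Chow. It was higher in every HFHC liver than in every Chow liver, by 0.32 on the log2 scale (exact permutation test, two-sided, p = 0.1, the smallest p that 3 livers against 3 allow).

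**Figure D2:**
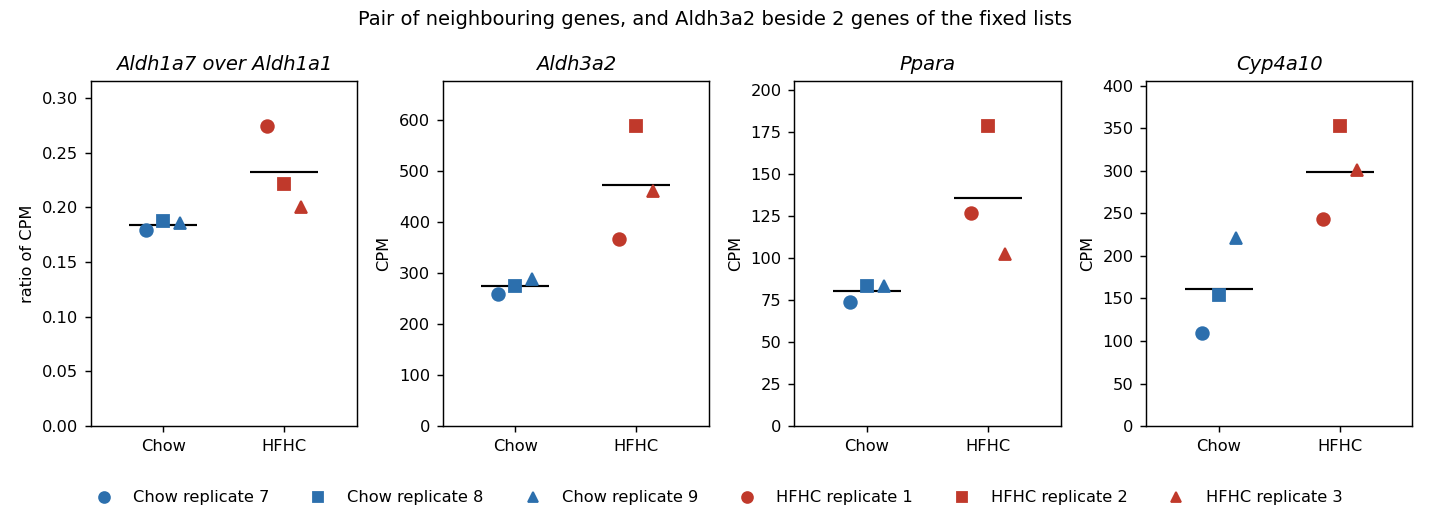
The ratio of Aldh1a7 to Aldh1a1 CPM (left) and the CPM of Aldh3a2, Ppara and Cyp4a10 (vertical axes, from 0), with 1 point per liver and a bar at the mean of each diet. The ratio is 0.200 to 0.274 in HFHC and 0.179 to 0.187 in Chow. HFHC replicate 2 is the highest liver for Aldh3a2, Ppara and Cyp4a10, while HFHC replicate 1 is below replicate 3 for Aldh3a2 and Cyp4a10 and above it for Ppara. That liver is also the highest for other listed genes, among them Nr1i3 (282 CPM), Nfe2l2 (87.0 CPM), Gpd2 (76.5 CPM) and Acss3 (65.3 CPM), where that liver means HFHC replicate 2. A link between the genes shown was not tested.

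The genes of the classical ethanol route were not called. Adh1, class I alcohol dehydrogenase and the main ethanol-oxidising enzyme of the liver cytosol (chr3:138260991-138290698, plus strand), was at 1465, 1430 and 1433 CPM in HFHC and at 1408, 1519 and 1606 CPM in Chow. The HFHC livers lay inside the Chow range, with means of 1443 ± 19.4 and 1511 ± 99.7 CPM (SD, n = 3 each) and a log2 fold change of -0.07 (95% interval -0.26 to 0.12, adjusted p 0.700 by edgeR). Aldh2, the mitochondrial enzyme that clears most acetaldehyde (chr5:121566027-121593824, minus strand), was at 1633, 1610 and 1423 CPM in HFHC and at 1416, 1405 and 1469 CPM in Chow. HFHC replicate 3 lay within the Chow range and the other HFHC livers above it. The log2 fold change of Aldh2 was 0.12 (95% interval -0.08 to 0.32, adjusted p 0.470 by edgeR). As ratios of HFHC to Chow, the 95% intervals ran from 0.837 to 1.09 for Adh1 and from 0.949 to 1.25 for Aldh2.

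Aldh1b1, another mitochondrial aldehyde dehydrogenase that accepts acetaldehyde (chr4:45799022-45804604, plus strand), was the least abundant of the 10 per kilobase of exon. It was at 49.5, 47.1 and 47.9 CPM in HFHC and at 52.5, 54.2 and 69.6 CPM in Chow. Every HFHC liver was below every Chow liver. Its log2 fold change was -0.29 ± 0.11 (SE, 95% interval -0.53 to -0.04) with an adjusted p of 0.161 by edgeR, so it was not called, and without Chow replicate 9, its highest liver, it was -0.15. Adh4, class II alcohol dehydrogenase, which works on ethanol at high concentrations and on retinol (chr3:138415466-138430892, plus strand), was at 136, 114 and 135 CPM in HFHC and at 156, 137 and 147 CPM in Chow. The diets did not overlap, though HFHC replicate 1 and Chow replicate 8 were less than 1 CPM apart, and the log2 fold change was -0.19 ± 0.09 (SE, 95% interval -0.41 to 0.02, adjusted p 0.265 by edgeR), or -0.11 without HFHC replicate 2.

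In all, 4 of the 10 genes had no overlap between the diets: Aldh3a2 and Aldh1a7 higher, Adh4 and Aldh1b1 lower in HFHC. Over all tested genes 27.8% had no overlap, 13.5% higher and 14.3% lower. With so few genes, 4 of 10 is not far above that share.

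Of the enzymes for formaldehyde and folate, neither was called. Adh5, class III alcohol dehydrogenase, oxidises the adduct of formaldehyde and glutathione and reduces S-nitrosoglutathione (chr3:138443093-138455499, plus strand). It was at 338, 315 and 364 CPM in HFHC and at 384, 316 and 387 CPM in Chow, with replicate 2 in HFHC and replicate 8 in Chow similarly low. For Adh5 the log2 fold change was -0.10 (95% interval -0.33 to 0.13, adjusted p 0.638 by edgeR); with the clock index in the model it turned to 0.11 (adjusted p 0.866). Aldh1l1, the cytosolic 10-formyltetrahydrofolate dehydrogenase (chr6:90486427-90600203, plus strand), was at 999, 853 and 813 CPM in HFHC and at 1004, 989 and 1188 CPM in Chow. HFHC replicate 1 reached into the Chow range and the other HFHC livers were below it. Its log2 fold change was -0.25 ± 0.11 (SE, 95% interval -0.50 to -0.01, adjusted p 0.210 by edgeR). The intervals are not adjusted for the number of genes tested, which is why those of Aldh1l1 and Aldh1b1 leave out 0 without a call.

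Aldh9a1, which oxidises trimethylaminobutyraldehyde in carnitine synthesis (chr1:167349991-167368532, plus strand), was at 264, 253 and 239 CPM in HFHC and at 236, 219 and 239 CPM in Chow. Only HFHC replicate 3 fell inside the Chow range, below Chow replicate 9. On the log2 scale Aldh9a1 differed by 0.12 (95% interval -0.06 to 0.30, adjusted p 0.419 by edgeR).

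**Figure D3:**
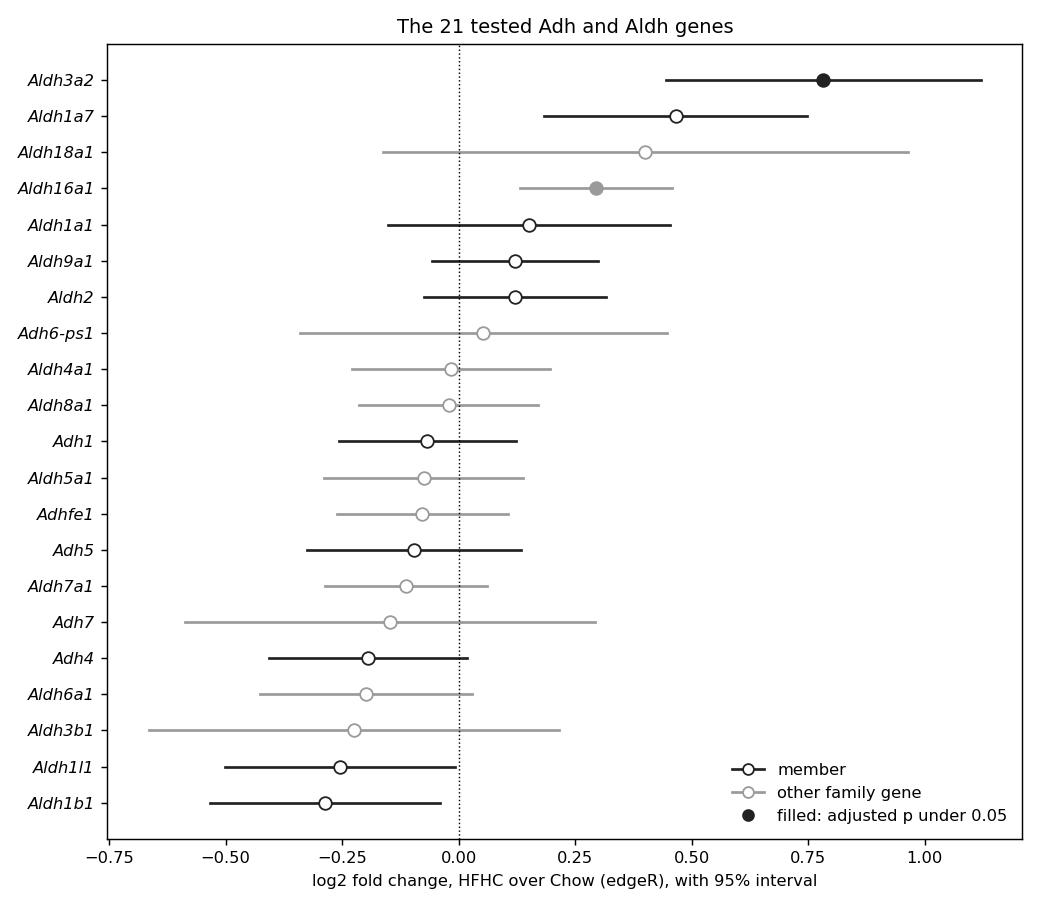
Log2 fold change (HFHC over Chow) with its 95% interval for the 21 tested Adh and Aldh genes, the 10 described genes in black and 11 others in grey; filled points have an adjusted p under 0.05 by edgeR. The filled points are Aldh3a2 at 0.78 and Aldh16a1 at 0.30.

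To compare levels between genes, CPM were divided by the length of all exons of each gene. Per kilobase, Adh1 stood first in Chow at 677 ± 44.6, followed by Aldh2 at 279 ± 6.67, Aldh1a1 at 248 ± 42.8 and Aldh1l1 at 235 ± 24.5 CPM per kb (SD, n = 3). Aldh1a7 at 109 ± 20.3 and Adh4 at 101 ± 6.75 CPM per kb came next, then Aldh9a1 at 68.4 ± 3.19, Adh5 at 67.0 ± 7.48, Aldh3a2 at 48.7 ± 2.58 and Aldh1b1 at 25.6 ± 4.10 CPM per kb. Neighbours in that order whose livers overlapped were Aldh2 with Aldh1a1, Aldh1a1 with Aldh1l1, Aldh1a7 with Adh4, and Aldh9a1 with Adh5. In HFHC the order was the same except that Aldh3a2, at 83.9 ± 19.8 CPM per kb, stood in place 7 instead of 9. Its livers overlapped with those of Adh4, Aldh9a1 and Adh5.

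The order depends on the length used. With the principal coding transcript, Adh5 has 1604 bases instead of 5408, and its level in Chow becomes 226 ± 25.2 CPM per kb, in place 5 instead of 8. Aldh1a1 then passes Aldh2, with 519 ± 89.7 against 370 ± 8.84 CPM per kb, and Adh1 stays first and Aldh1b1 last. Which transcripts were present is not known from gene counts.

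**Figure D4:**
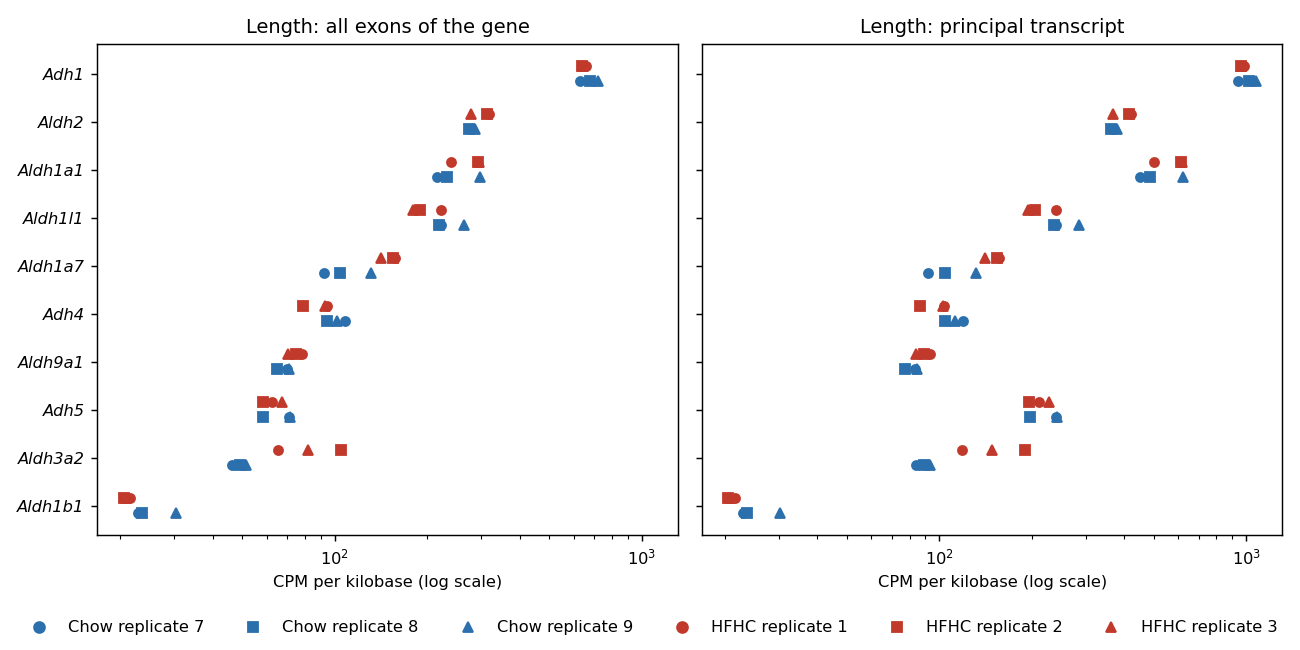
CPM per kilobase (log axis) of the 10 genes in each liver, with the length of all exons (left) and of the principal coding transcript (right); blue points are Chow and red points HFHC. Adh1 is the highest and Aldh1b1 the lowest on both scales, and Adh5 moves from 67.0 to 226 CPM per kb in Chow.

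The rest of both families was counted beside the 10 genes. Of 19 further Adh and Aldh genes 18 were in the table, all but Aldh3a1; 11 had enough counts to test and 1 was called, Aldh16a1, a non-catalytic member of the aldehyde dehydrogenase superfamily. It was at 62.5, 62.2 and 61.5 CPM in HFHC and at 48.9, 49.7 and 53.2 CPM in Chow, so all HFHC livers were higher. The log2 fold change of Aldh16a1 was 0.30 ± 0.07 (SE) with an adjusted p of 0.0432 by edgeR, and the call was lost whenever any 1 library was left out, with an adjusted p of 0.0676 to 0.172. It was also lost with GC and length trends taken out (0.0949) and with the clock index (0.435), and held in the other 9 of 17 alternatives. Aldh4a1 and Aldh8a1 of amino acid breakdown, Aldh5a1 of succinic semialdehyde, Aldh6a1 of valine breakdown and Aldh7a1 of lysine breakdown had log2 fold changes of -0.02, -0.02, -0.07, -0.20 and -0.11, and none was called. Aldh4a1 shares 32.5% of its exonic bases with Gm21969 on the same strand, so its count is uncertain. Adhfe1, Adh7, the pseudogene Adh6-ps1, Aldh3b1 and Aldh18a1 were not called either. Adh6a, Adh6b, Aldh1a2, Aldh1a3, Aldh1l2, Aldh3b2 and Aldh3b3 had too few counts to test, each at or under 0.509 CPM in every liver.

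The Adh genes lie together on chromosome 3, in the order Adh7, Adh1, Adh6a, Adh6b, Adh6-ps1, Adh4 and Adh5, over 237.7 kb (chr3:138217760-138455499). None of the 5 that were tested was called, and their log2 fold changes ran from -0.19 (Adh4) to 0.05 (Adh6-ps1). Adh6a and Adh6b, which lie between Adh1 and Adh6-ps1, had 1 to 6 and 0 to 6 counts per liver, while Adh1 had at least 37095.

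Enzymes that work beside the 10 genes were taken as lists. Of 14 tested genes for the partner reactions of ethanol, acetaldehyde and acetate, 4 were called higher and 0 lower (28.6% against 6.67% of all genes), with a median log2 fold change of 0.11. Those that rose were Ldha, lactate dehydrogenase A, by 0.68 ± 0.09, Gpd1 by 0.53 ± 0.12 and Gpd2, which form the glycerol phosphate shuttle for NADH, by 0.68 ± 0.17, and Acss3, a mitochondrial short-chain acyl-CoA synthetase, by 0.90 ± 0.21 (log2, SE; adjusted p 0.0028, 0.0348, 0.0469 and 0.0394 by edgeR). Gpd2 was named after its value was seen. Cyp2e1 and Cat, the other ethanol oxidisers, had log2 fold changes of 0.08 and -0.03 and were not called, and neither was Acss2, the cytosolic acetyl-CoA synthetase, whose 597, 508 and 331 CPM in HFHC overlapped with 189, 187 and 343 CPM in Chow.

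Calls among other enzymes for aldehydes and carbonyls were in the other direction. Of 27 tested, 0 were called higher and 5 lower (18.5%), with a median of -0.05. Gsta4, a glutathione transferase for hydroxynonenal, fell by 1.58 ± 0.11 on the log2 scale, from 40.9 ± 2.94 to 13.7 ± 1.62 CPM (SD, n = 3 each; adjusted p 0.00012 by edgeR). The aldehyde oxidases Aox3 and Aox1 fell by 0.98 ± 0.14 and 0.66 ± 0.11 (log2, SE; adjusted p 0.0053 and 0.0082 by edgeR). The carbonyl reducers Akr1c19 and Cbr1 also fell, by 0.79 and 0.49 on the log2 scale, and were named after their values were seen. The 22 others were not called. A list of 14 targets of CAR, PXR and NRF2, the receptors and the factor that govern drug- and electrophile-handling genes, was also counted. Like the other lists, it was chosen with earlier results of these data known, so its share is a description and no set test was run. Of these 14 genes 8 were called lower and 0 higher (57.1%), with a median of -1.44. Cyp3a11 fell from 5035 ± 1155 to 191 ± 83.1 CPM (SD, n = 3 each, adjusted p 0.00012 by edgeR). Gstp1 fell by 1.93 and Ces2a by 1.62 on the log2 scale. The others called were Cyp2b10, Cyp2c29, Cyp2c55, Gstm1 and Gstm3. Not called were Nqo1, Hmox1, Gclc, Gclm, Txnrd1 and Srxn1, with log2 fold changes of -0.04, 0.25, -0.13, -0.30, -0.05 and 0.22. The count was not split by receptor or factor, so it does not show that NRF2 targets were lower as a group.

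In the lists next to Aldh1a1 and Aldh1l1 the share called was near the 6.67% of all tested genes. Of 24 retinoid genes 2 were called higher and 0 lower (8.33%, median 0.08): Rdh11, a retinaldehyde reductase, rose by 1.07 ± 0.15 and Bco1, which cleaves beta-carotene to retinaldehyde, by 0.72 ± 0.15 (log2, SE; adjusted p 0.0049 and 0.0220 by edgeR). Cyp26a1, which breaks down retinoic acid, was at 5.11 ± 0.750 CPM in HFHC and at 25.7 ± 25.8 CPM in Chow (SD, n = 3 each) and was not called. Of 25 genes of folate one-carbon metabolism 2 were called higher and 0 lower (8.00%, median 0.07): Shmt1, the cytosolic serine hydroxymethyltransferase, rose by 0.57 ± 0.08, and Dmgdh, dimethylglycine dehydrogenase, by 0.38 ± 0.07 (log2, SE; adjusted p 0.0038 and 0.0198 by edgeR). Of 7 genes of carnitine and choline metabolism, beside Aldh9a1, 1 was called higher and 0 lower (14.3%, median 0.12). It was Slc25a20, the mitochondrial carnitine-acylcarnitine carrier, which rose by 0.48 ± 0.09 (log2, SE, adjusted p 0.0194 by edgeR).

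Beside Aldh3a2 stand the sources of long-chain aldehydes, of which 13 were tested, 1 was called higher and 1 lower (15.4%, median -0.11). Cyp4a10, a fatty acid omega-hydroxylase, was at 244, 353 and 301 CPM in HFHC and at 110, 154 and 222 CPM in Chow. All HFHC livers were higher, and the log2 fold change of Cyp4a10 was 0.89 ± 0.23 (SE, adjusted p 0.0491 by edgeR). Cyp4v3 fell by 0.55 ± 0.08 (log2, SE, adjusted p 0.0058 by edgeR). Sgpl1, the sphingosine phosphate lyase that releases hexadecenal, was at 68.6 ± 8.13 CPM in HFHC and at 85.8 ± 5.74 CPM in Chow (SD, n = 3 each) and was not called, nor was Far1, which makes fatty alcohols.

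Of 20 nuclear receptors and regulators 1 was called higher and 2 lower (15.0%, median 0.10). Ppara, the receptor that turns on fatty acid oxidation genes, was at 127, 178 and 103 CPM in HFHC and at 74.0, 83.5 and 83.2 CPM in Chow. All HFHC livers were higher, with a log2 fold change of 0.76 ± 0.17 (SE, adjusted p 0.0330 by edgeR). Rora fell by 0.50 ± 0.07 and Esr1 by 0.47 ± 0.12 (log2, SE; adjusted p 0.0058 and 0.04996 by edgeR). Nr1i3 (CAR), Nr1i2 (PXR) and Nfe2l2 (NRF2) had log2 fold changes of 0.19, -0.18 and 0.31 and were not called.

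With 1 library left out, the log2 fold change of Adh1 ran from -0.12 (without Chow replicate 7) to -0.02 (without Chow replicate 9), and that of Adh5 from -0.18 (without Chow replicate 8) to -0.04 (without HFHC replicate 2). For Aldh1l1 it was -0.34 when HFHC replicate 1 was left out and -0.17 when Chow replicate 9 was. Aldh2 ran from 0.09 (without HFHC replicate 1) to 0.18 (without HFHC replicate 3), and Aldh9a1 from 0.09 to 0.16. None of these 5 genes was called in any of their 18 alternatives.

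**Figure D5:**
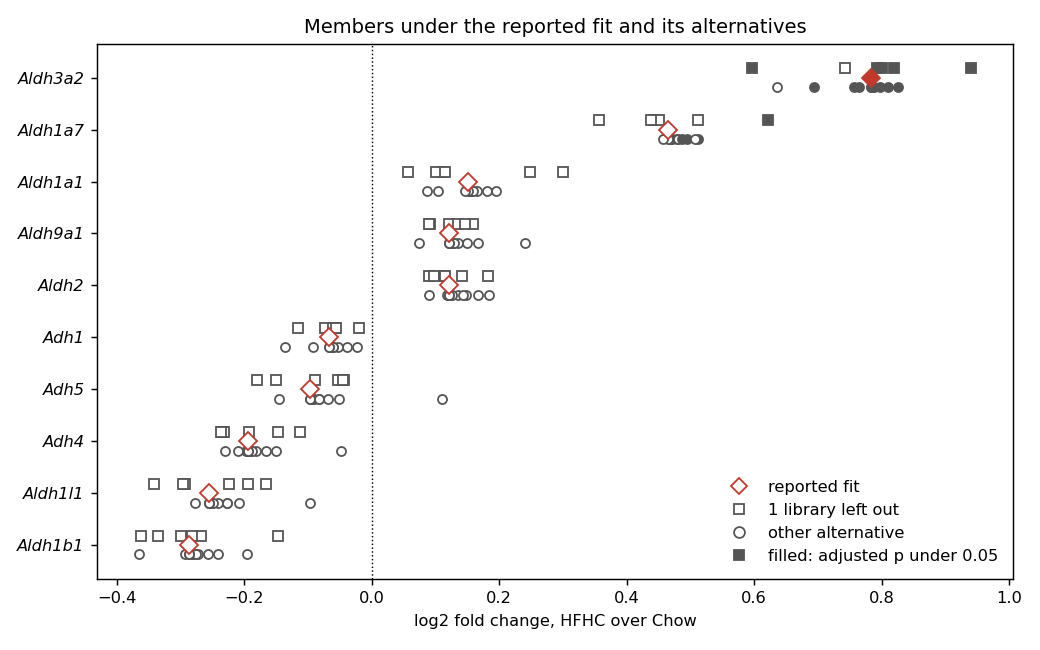
Log2 fold change (HFHC over Chow) of the 10 genes in the reported fit (red diamonds), with 1 library left out (squares) and under the other alternatives (circles); filled symbols have an adjusted p under 0.05. Aldh3a2 stays between 0.60 and 0.94 and Aldh1a7 between 0.36 and 0.62, and the only point that changes side of 0 is that of Adh5 at 0.11.

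Some counts of the 10 genes are less certain than their depth. The deposited values were not whole in all 6 libraries for Adh1, Adh5, Aldh1a1, Aldh1a7, Aldh1l1, Aldh2 and Aldh3a2, in 5 for Adh4 and in 3 for Aldh9a1, and whole in all 6 for Aldh1b1. Genes on the opposite strand overlap 11.05% of the exonic bases of Aldh1l1, 6.09% of those of Adh1 and 2.54% of those of Aldh2. Whether strand was used in counting is not given in the sources used here, so reads of these antisense genes may be among them.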

How the data were processed

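Total RNA of 6 livers was depleted of ribosomal RNA and made into stranded libraries read in pairs of 75 bases, per the labels' protocols. Expected counts (estimated counts, not normalized) per gene were made and deposited by the authors with STAR 2.7.3a, Partek 9 and mm10, per the submitters' processing notes, and 22.4% of them were not whole (tolerance 0.01). How reads were counted, with which annotation and strand setting, is not given in the sources used here.

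Counts were rounded, filtered by filterByExpr (minimum count 10) and tested with edgeR 4.0.16 (TMM factors of 0.9705 to 1.0216, quasi-likelihood F test, Benjamini-Hochberg adjustment over all tested genes). SEs are the size of the log2 fold change over the square root of F. The p-values set the diet difference against the spread among these mice, moderated by that of the other genes.

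The 10 genes and the lists were chosen with earlier results of these data known. All 10 genes and every listed gene of both families are named. Each other list gave up to 3 called genes with the smallest p in its main direction and 1 in the other, or, where none was called, the gene with the smallest p; for Aldh3a2 the 3 genes most like it were added. Other genes were named after their values were seen. The marker lists without a call, with the gene of smallest p in each, were those of stellate cells (Hand2), sinusoidal endothelium (Ptprb), cholangiocytes (Epcam), T, B and NK cells (Cd4), neutrophils (S100a9), pancreas (Cela1), and Kupffer cells and macrophages (Clec4f). In the erythroid list Hba-a1 was called higher, in the hepatocyte list Cps1 lower, and among 12 clock genes Dbp higher and Clock and Cry1 lower.

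Positions and lengths come from GENCODE M21, whose gene ends lie 1 base before the table's in 19876 of 20084 matched genes, and sequences from RefSeq (GRCm38.p6). Alternatives were other size factors, filters, rounding and thresholds, DESeq2 1.42.0, limma-voom 3.58.1 with and without sample weights, GC and length trends taken out, the clock index, and each library left out. R 4.3.3 and Python 3.11.15 were used.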

Additional observations from a re-analysis of the deposited data

How the results depend on the processing

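Of the 10 genes, 1 was called in the reported fit. The number was 2 with upper-quartile scaling, with scaling by total counts without the 10 most abundant genes, with DESeq2 and with limma-voom with sample weights, where Aldh1a7 joined Aldh3a2. It was 0 with the clock index as a covariate and at an adjusted p under 0.01, and 0 to 2 with 1 library left out (0 without Chow replicate 7, 2 without Chow replicate 9). Of all tested genes 994 were called (503 higher, 491 lower), against 1494 with limma-voom with sample weights, 65 with the clock index, 282 at an adjusted p under 0.01, and 361 (without Chow replicate 7) to 1080 (without Chow replicate 8) with 1 library left out. Scaling without the 10 most abundant genes gave 601 higher and 359 lower. One direction reversed, that of Adh5 with the clock index, to a log2 fold change of 0.11. The summed counts of Aldh1a1 and Aldh1a7 were not called under any of 17 alternatives, with log2 fold changes of 0.11 to 0.35. The cause of these shifts was not tested. Alternatives on Aldh16a1 and on the transcript length behind the levels were added after seeing the data. No paired analysis was possible because the diets share no replicate number.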
